A study of Rattus norvegicus with 18 samples.

Results

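Endothelial cells line the blood vessels, and this account concerns 8 genes that mark them, Pecam1, Cldn5, Cdh5, Kdr, Flt1, Tek, Eng and Vwf, in mixed cultures of neurons and glia grown from rat cortex. The genes were chosen by name, and rows were matched to them ignoring case, so that the matching used no measured value. Of the 8 genes, 7 were matched to 1 of the 31463 rows of the count tables, and Cldn5 was not analysed here. RNA was sequenced in 18 libraries, 3 in each of 6 groups. The cultures came from the cortex of newborn Wistar rats and, per the study's methods, shared several treatments that bear on vessel cells. The cortex was cleared of its vascular lining before dissociation with papain, the cells grew in Neurobasal medium with B-27, and cytosine arabinoside was given early in culture to limit dividing glia. On day 10 in vitro, Control cultures received no glutamate, whereas Glutamate cultures were exposed to 100 µM glutamate, and RNA was taken 4 h after the model. Memantine cultures received 100 µM memantine, which blocks glutamate receptors of the NMDA type, together with glutamate. The Glutamate_vesicles, Glutamate_secret and Glutamate_BPC cultures were given secreted material of glial progenitor cells 1 day before glutamate. The vesicles came from glial progenitors made from human induced pluripotent stem cells. Which of the names secret and BPC stands for the protein fraction and which for the total secretome is not stated in the labels, so the names are used as given. The labels do not say whether the 3 libraries of a group came from separate animals or cultures. The study's methods describe its experiments in general as repeated on unrelated cultures, without tying this to single libraries, so p-values measure the spread between these samples, which may be technical. Pooling of animals is not stated.

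Endothelial cells sense growth factors through receptor tyrosine kinases. Kdr and Flt1 encode receptors of vascular endothelial growth factor (VEGF), of which Kdr carries most of the growth signal while Flt1 binds the ligand tightly and can act as a decoy. Tek encodes the angiopoietin receptor Tie2, and Eng encodes endoglin, a co-receptor of the transforming growth factor beta family. Cdh5, or VE-cadherin, holds endothelial cells together at adherens junctions, Cldn5 seals the tight junctions of the blood-brain barrier, and Pecam1 (CD31) lies at contacts between the cells. Vwf encodes von Willebrand factor, a clotting protein stored in endothelial granules. Several of these genes are not exclusive to endothelium, since Pecam1 is also present on platelets and leukocytes, Vwf is made by megakaryocytes, and Eng and Flt1 can be expressed by macrophages.

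Upstream sequences from RefSeq were matched by symbol for 4 of the 8 genes, namely Eng, Flt1, Kdr and Cldn5, on the assembly GRCr8, which differs from the rn6 build named for the counts. The sequences of Eng and Flt1 are shown because these windows hold the letters AGGAAG, a core bound by the ETS family of transcription factors, which includes regulators of endothelial genes. Each window covers the 250 bases before the annotated start, in the direction of transcription, on the plus strand, at chr3:36332029-36332278 for Eng and chr12:12333180-12333429 for Flt1. Capitals mark AGGAAG on either strand and TATAAA on the strand shown.
Eng: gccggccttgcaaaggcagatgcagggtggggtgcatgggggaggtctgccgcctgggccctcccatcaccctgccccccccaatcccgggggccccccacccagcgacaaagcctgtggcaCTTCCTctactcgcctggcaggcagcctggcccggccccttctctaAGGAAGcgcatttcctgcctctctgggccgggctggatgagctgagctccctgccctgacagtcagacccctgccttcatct
Flt1: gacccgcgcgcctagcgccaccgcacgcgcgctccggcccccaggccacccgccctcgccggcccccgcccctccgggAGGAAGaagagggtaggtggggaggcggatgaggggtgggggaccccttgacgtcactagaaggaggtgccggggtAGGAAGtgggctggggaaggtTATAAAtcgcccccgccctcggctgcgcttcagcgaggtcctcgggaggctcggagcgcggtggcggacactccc
The Eng window held 2 matches to AGGAAG, beginning 128 and 82 bases before the start. The Flt1 window held 2 matches, at 172 and 96 bases before the start, and 1 match to TATAAA at 75 bases. The windows of Kdr and Cldn5 held neither set of letters. Among all 33469 upstream windows of the same length, 29.5% held AGGAAG on either strand and 8.06% held TATAAA. The matches are a description of letters and not evidence of binding.

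Counts of the endothelial genes were low in every library. Summed over the 7 genes, a library held between 6 counts in Glutamate_secret 1 and 183 counts in Glutamate_BPC 2, with a median of 48. All 18 libraries together held 1194. Total counts per library ranged from 8409574 in Control 1 to 17206354 in Glutamate_vesicles 2, and the genes took between 6.497e-05% and 0.00132% of them. Expression is given below in CPM, which are counts scaled to a common library size after the libraries were adjusted to each other by TMM, a trimmed mean of their log ratios. On this scale, 1 count was worth 0.0401 to 0.286 CPM, and a count of 0 in a library allows a level of up to 3 counts, which is 0.120 to 0.857 CPM. The highest of these floors belonged to Control 1, which stood apart with 43.0% ribosomal RNA and a scaling factor of 0.417, against a lowest share of 3.04% and a highest factor of 1.58 in the series. Intervals and floors cover counting error only. In cultures of mixed cells, fewer cells of a type and less RNA per cell cannot be told apart.

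**Figure D1:**
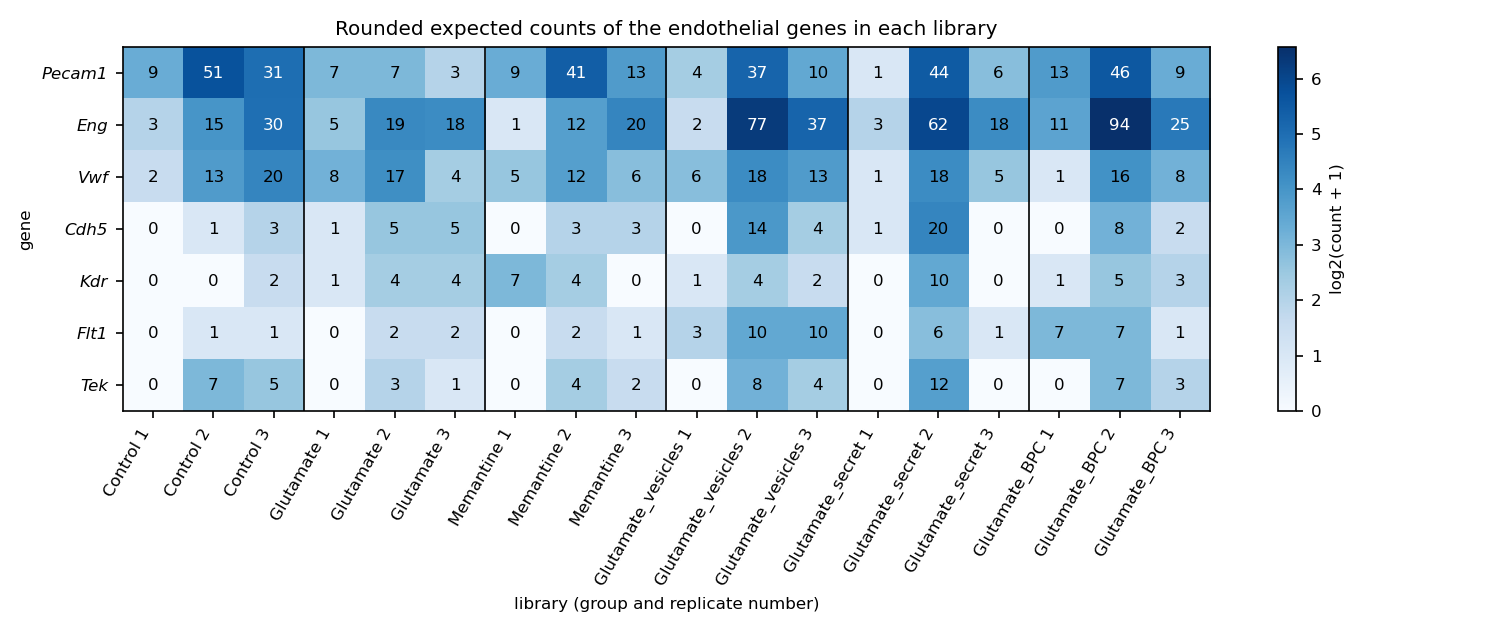
Rounded expected counts of the 7 endothelial genes (rows) in the 18 libraries (columns, ordered by group and replicate number), with the count printed in each cell and the colour showing log2(count + 1). The highest count is 94 (Eng in Glutamate_BPC 2), Tek is at 0 in all 6 libraries with number 1, and 41 of the 56 counts of Tek lie in libraries with number 2. Counts are not scaled to library size.

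Only Pecam1, Eng and Vwf passed the filter on low counts, which left 14398 of all rows for testing. Each had a count in 18 of 18 libraries. Cdh5, Kdr, Flt1 and Tek stayed below the filter and were at 0 in 5, 5, 4 and 7 libraries. In the F test of edgeR over the 6 groups, 0 of the 3 tested genes were called at an adjusted p below 0.05, where 1 of all 14398 tested genes was called (0.00695%). At an unadjusted p below 0.05, 0 of the 3 were below the threshold as well, against 7.75% of all tested genes. The count was also 0 of 3 by DESeq2 and by edgeR's likelihood-ratio test, which called 717 and 587 of the 14398 tested genes.

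Pecam1, the adhesion molecule at endothelial contacts, had its highest group mean in Control and its lowest in Glutamate. Its level was 2.57, 2.50 and 1.67 CPM in Control 1, 2 and 3, from 9, 51 and 31 counts. In Glutamate 1, 2 and 3 it was 0.904, 0.444 and 0.292 CPM, from 7, 7 and 3 counts. All 3 Glutamate libraries lay below all 3 Control libraries. The Memantine libraries were at 0.966, 2.28 and 0.934 CPM, and the Glutamate_vesicles libraries at 0.399, 1.48 and 0.486 CPM. The Glutamate_secret libraries were at 0.158, 1.95 and 1.09 CPM, and the Glutamate_BPC libraries at 1.18, 2.65 and 0.976 CPM. In each of these 4 groups the library with number 2 was the highest. The group means ± SD (n = 3) were, in falling order, 2.25 ± 0.502 CPM in Control, 1.60 ± 0.915 in Glutamate_BPC, 1.39 ± 0.767 in Memantine, 1.06 ± 0.895 in Glutamate_secret, 0.790 ± 0.603 in Glutamate_vesicles and 0.547 ± 0.319 in Glutamate. The ranges of any 2 neighbours in this order overlapped. Over the 6 groups, edgeR gave Pecam1 an unadjusted p of 0.211 and an adjusted p of 1.00.

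For Glutamate against Control, the question is whether the glutamate exposure itself altered these genes. Pecam1 was lower in Glutamate by a log2 fold change of -2.04 (SE 0.82, 95% interval -3.79 to -0.29), which is 0.243 times the Control level. As all Glutamate libraries lay below all Control libraries, any matching of libraries, also that by number, gives lower values in 3 of 3. By the rule given with the processing, the numbers did not pair the libraries in this comparison. The unadjusted p of edgeR was 0.0248 and the adjusted p was 0.492, so that Pecam1 did not pass the test. The count of tested endothelial genes called was 0 of 3, against 0 of 14398 genes (0%). It was also 0 of 3 by DESeq2 and by edgeR's likelihood-ratio test, which called 232 and 45 of all tested genes. An unadjusted p below 0.05, which 1 of the 3 reached, was reached by 8.11% of all tested genes, with 5.97% lower in Glutamate. Group ranges without overlap, seen here for 1 of the 3, were seen for 12.2% of all tested genes, with 7.76% lower in Glutamate. Without Control 1, the library with the highest Pecam1 level in this group, the log2 fold change was -1.95 with an adjusted p of 0.600 in edgeR.

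Summed markers of neurons lay lower in Glutamate than in Control beside Pecam1. The 6 neuron genes of a fixed list summed to 1907 to 2588 CPM in the Control libraries and to 535 to 1040 CPM in the Glutamate libraries. They summed to 596 to 3010 CPM in Memantine, 532 to 814 in Glutamate_vesicles, 460 to 963 in Glutamate_secret and 609 to 970 in Glutamate_BPC. All 6 passed the filter, and 0 were called in edgeR for Glutamate against Control, where their median log2 fold change was -1.58, beside 0.08 over all tested genes. Tubb3, a tubulin of neurons, had a log2 fold change of -2.02 there (SE 0.43) with an adjusted p of 0.261 in edgeR. Map2 of the same list had means of 52.8 CPM in Control and 50.4 CPM in Glutamate. The sums rest largely on Stmn2 and Tubb3, whose Control means were 1268 and 703 CPM. For Memantine against Glutamate the median of the 6 was 1.41, beside -0.02 over all tested genes. Over the 18 libraries, Spearman's rho of Pecam1 with the 6 genes was 0.04 to 0.67 with a median of 0.35. With log2 CPM centred within replicate numbers the median was 0.48. The medians over all tested genes were 0.03 and, centred, -0.02. With the 6 genes of the astrocyte list they were 0.27 and, centred, -0.09. The part of neurons in the Pecam1 result was not tested.

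Pecam1 also had group ranges without overlap in 3 further comparisons, and it passed the test in none of them. Against Glutamate it was higher in Memantine by a log2 fold change of 1.37 (SE 0.81), with an unadjusted p of 0.109 and an adjusted p of 0.999 in edgeR. Ranges without overlap were found there for 2.86% of all tested genes. It was higher in Glutamate_BPC than in Glutamate by 1.58 on the log2 scale (SE 0.81), with an unadjusted p of 0.0701 and an adjusted p of 1, and 7.13% of all tested genes had ranges without overlap. These comparisons share the 3 Glutamate libraries with each other and with the one against Control. Glutamate_vesicles lay below Control by a log2 fold change of -1.46 (SE 0.78), with an unadjusted p of 0.0813 and an adjusted p of 0.516, and this comparison shares the Control libraries. There 19.5% of all tested genes had ranges without overlap. By the rule given with the processing, the replicate numbers paired the libraries in these 3 comparisons. With group and replicate number in the fit, edgeR gave Pecam1 an unadjusted p of 0.0863 (adjusted p 0.745) for Memantine against Glutamate. It was 0.0512 (0.966) for Glutamate_BPC against Glutamate and 0.0229 (0.167) for Glutamate_vesicles against Control. In the last comparison that fit called 538 of all 14398 tested genes (3.74%), Pecam1 not among them.

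Eng, the endoglin co-receptor, had group means in another order, with the 3 secreted preparations highest. In Glutamate_BPC its level was 0.996, 5.42 and 2.71 CPM in libraries 1, 2 and 3, from 11, 94 and 25 counts. In Glutamate_secret it was 0.473, 2.74 and 3.26 CPM, and in Glutamate_vesicles 0.199, 3.09 and 1.80 CPM. The library with number 1 was the lowest in each of these groups. The Glutamate libraries were at 0.646, 1.21 and 1.75 CPM, the Control libraries at 0.857, 0.736 and 1.62 CPM and the Memantine libraries at 0.107, 0.667 and 1.44 CPM. These 9 values overlapped with those of every preparation. The group means ± SD (n = 3) fell from 3.04 ± 2.23 CPM in Glutamate_BPC through 2.16 ± 1.48 in Glutamate_secret, 1.70 ± 1.45 in Glutamate_vesicles, 1.20 ± 0.553 in Glutamate and 1.07 ± 0.477 in Control to 0.737 ± 0.668 in Memantine. No 2 neighbours in this order had ranges apart. The F test of edgeR over the 6 groups gave an unadjusted p of 0.363 and an adjusted p of 1.00. For Glutamate against Control the log2 fold change of Eng was 0.15 (SE 0.97, 95% interval -1.91 to 2.21), with an adjusted p of 0.999. Its expected count was not whole in 10 of the 18 libraries, so part of its reads was shared out by the authors' quantification, whereas the counts of the other 6 genes were whole.

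Vwf, the clotting factor gene, had group means between 0.545 and 0.834 CPM. The Control libraries were at 0.571, 0.638 and 1.08 CPM, from 2, 13 and 20 counts, and the Glutamate libraries at 1.03, 1.08 and 0.389 CPM, from 8, 17 and 4 counts. The Memantine libraries were at 0.537, 0.667 and 0.431 CPM, and the Glutamate_vesicles libraries at 0.598, 0.722 and 0.632 CPM. The Glutamate_secret libraries were at 0.158, 0.796 and 0.905 CPM, and the Glutamate_BPC libraries at 0.0906, 0.922 and 0.868 CPM. The lowest value in both of the last groups belonged to the library with number 1, which held 1 count. Group means ± SD (n = 3) ran from 0.834 ± 0.386 CPM in Glutamate and 0.762 ± 0.275 in Control through 0.651 ± 0.0641 in Glutamate_vesicles, 0.627 ± 0.465 in Glutamate_BPC and 0.620 ± 0.404 in Glutamate_secret to 0.545 ± 0.118 in Memantine, and all neighbours overlapped. The F test of edgeR gave an unadjusted p of 0.968 and an adjusted p of 1.00. For Glutamate against Control the log2 fold change was 0.09 (SE 0.76, 95% interval -1.51 to 1.70), with an adjusted p of 0.999.

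**Figure D2:**
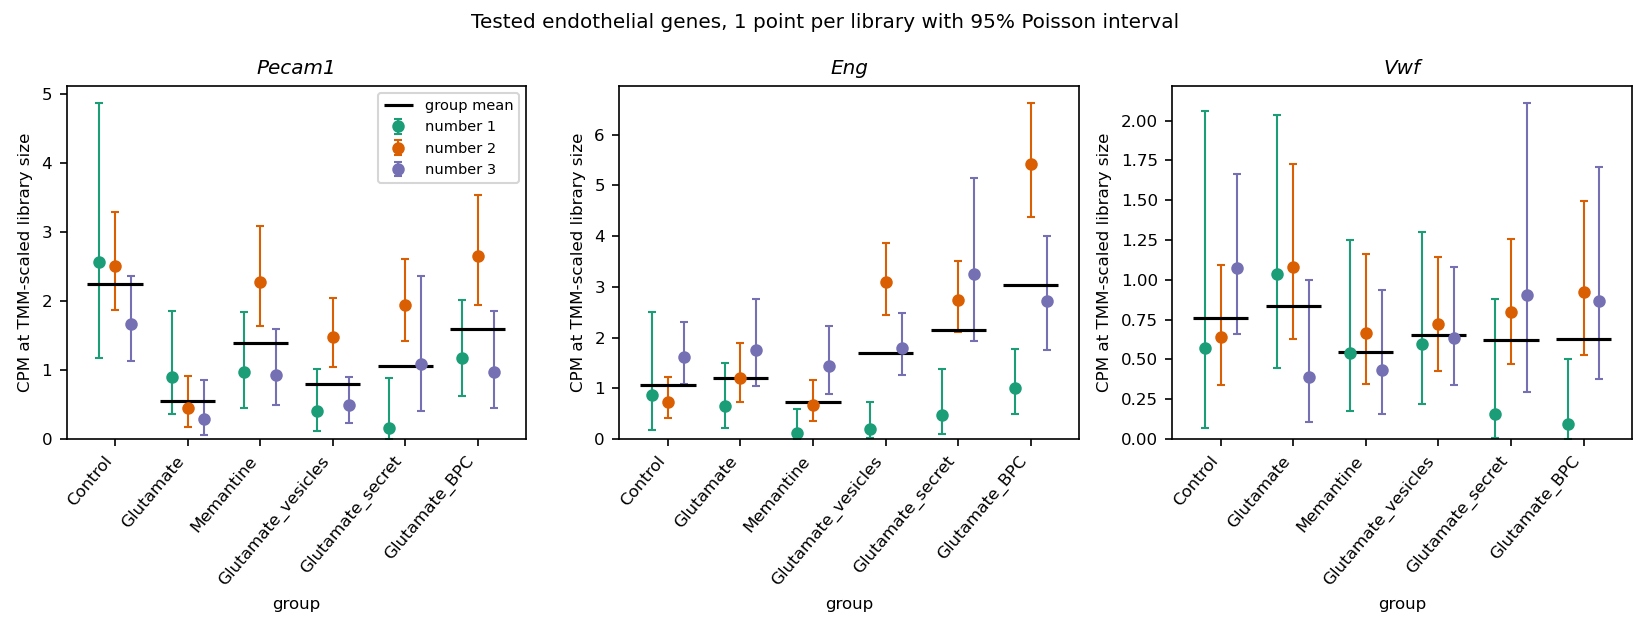
CPM of Pecam1, Eng and Vwf (1 panel each, linear axes from 0) in the 6 groups, with 1 point per library coloured by replicate number, bars for the 95% Poisson interval of its count and a black line for the group mean of 3. Pecam1 in Control lies at 1.67 to 2.57 CPM, above the Glutamate libraries at 0.292 to 0.904 CPM, while Eng and Vwf overlap between all groups.

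In the 8 comparisons other than Glutamate against Control, 0 of the 3 tested genes were called and 0 had an unadjusted p below 0.05 in edgeR without the replicate number. Over all tested genes the share called was 0% for Memantine, Glutamate_vesicles, Glutamate_secret and Glutamate_BPC against Glutamate. It was also 0% for Memantine, Glutamate_secret and Glutamate_BPC against Control, and 0.0139% for Glutamate_vesicles against Control. An unadjusted p below 0.05 was found for 5.08% of all tested genes for Memantine against Glutamate, and for 1.08%, 0.681% and 1.07% when the vesicles, secret and BPC groups were compared with Glutamate. Against Control the share was 1.12% for Memantine, and 11.6%, 11.8% and 11.3% for the same preparations. With the replicate number in the edgeR fit, Pecam1 in Glutamate_vesicles against Control had an unadjusted p of 0.0229 (adjusted p 0.167). Eng in Glutamate_BPC against Control had 0.0436 (adjusted p 0.216) in that fit, although the numbers did not pair the libraries there. Of all 14398 tested genes, that fit called 538 in the former comparison and 251 in the latter, against 2 and 0 without the number. The share of all tested genes with an unadjusted p below 0.05 is not given for that fit. In each of the 8 comparisons, DESeq2 and edgeR's likelihood-ratio test likewise had 0 of the 3. For the vesicles, secret and BPC groups against Control, DESeq2 called 495, 449 and 256 of all 14398 tested genes. The likelihood-ratio test called 160, 223 and 61 there. Against Glutamate these tests called 0 to 3 genes, and for Memantine against Control 0. At an unadjusted p below 0.05 both tests reached 1 of the 3 in Glutamate_BPC against Glutamate and 0 elsewhere. The 95% intervals remained wide. The log2 fold change of Eng of 1.48 for Glutamate_BPC against Control, had an interval of -0.57 to 3.54, and that of Pecam1 for Glutamate_vesicles against Glutamate, 0.58, had an interval of -1.13 to 2.29. Absence of a call at these counts therefore does not show that the levels were alike.

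**Figure D3:**
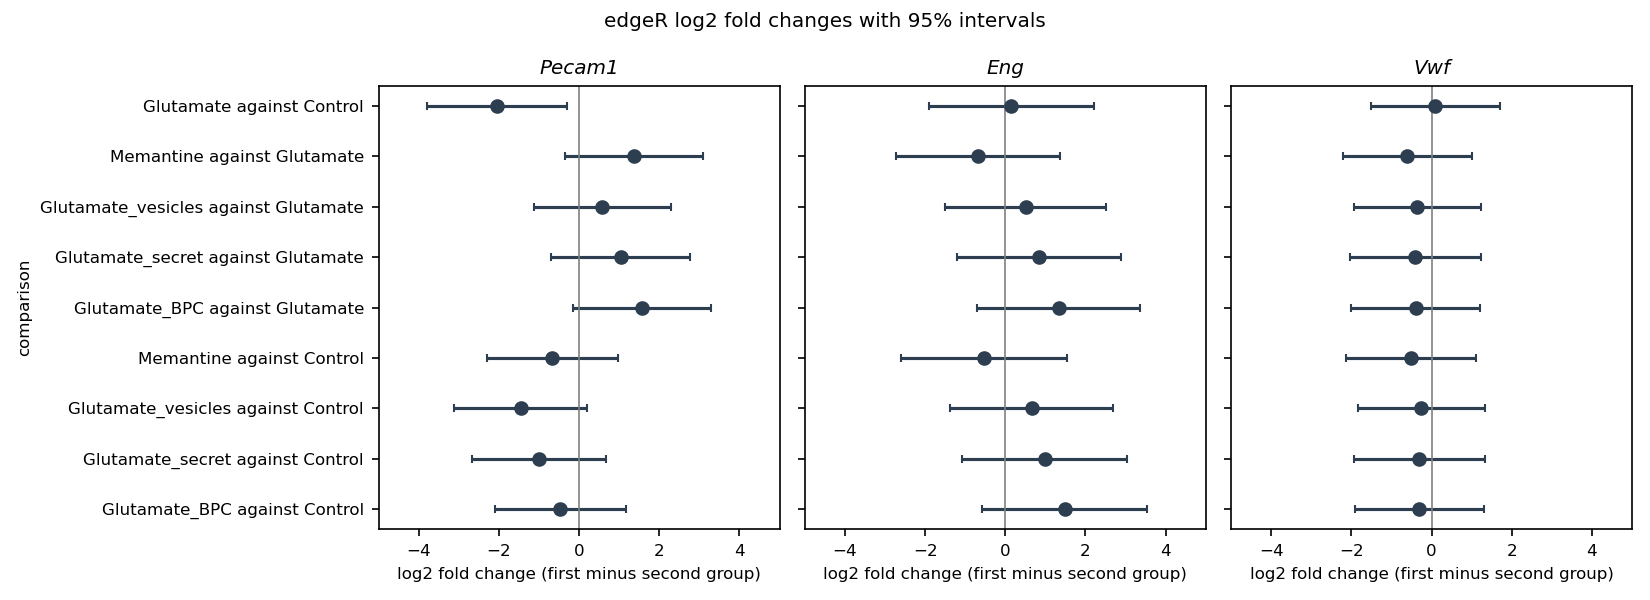
Log2 fold changes of Pecam1, Eng and Vwf (first named group minus second) with 95% intervals from edgeR in the 9 comparisons of 2 groups. The interval of Pecam1 for Glutamate against Control, -3.79 to -0.29, leaves out 0, and every other interval includes it.

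Flt1, the VEGF receptor with decoy properties, was listed with 3, 10 and 10 counts in Glutamate_vesicles 1, 2 and 3, and with 0, 1 and 1 in the Control libraries. The Glutamate libraries held 0, 2 and 2 counts and the Memantine libraries 0, 2 and 1. Glutamate_secret held 0, 6 and 1 and Glutamate_BPC held 7, 7 and 1. In CPM, the Glutamate_vesicles libraries lay between 0.299 and 0.486, above the Control libraries at 0 to 0.0539 and the Glutamate libraries at 0 to 0.195. The Glutamate_BPC libraries, at 0.108 to 0.634 CPM, were above Control too and overlapped with Glutamate. The floor of Control 1, 0.857 CPM, exceeds all of these levels, so that this library cannot show whether Flt1 was lower in it. The floor of Glutamate 1, 0.387 CPM, lies above the 0.299 CPM of Glutamate_vesicles 1, so that the ranges of these groups cannot be shown to lie apart either.

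Pooled over the libraries of a group, 23 counts of Flt1 in Glutamate_vesicles stood against 2 in Control, a ratio of 8.79 in CPM with an exact 95% counting interval of 2.17 to 76.9. Against the 4 counts in Glutamate, the ratio was 3.50 (1.19 to 13.9). For Glutamate_BPC against Control, with 15 and 2 counts, it was 8.46 (1.97 to 76.3). These intervals leave out the spread between libraries. In edgeR without the filter on low counts, with 20990 genes, the log2 fold change of Flt1 was 2.94 (SE 1.21) for Glutamate_vesicles against Control, with an unadjusted p of 0.0259 and an adjusted p of 0.501. For Glutamate_BPC against Control it was 2.87 (SE 1.22), with an unadjusted p of 0.0305 and an adjusted p of 0.533. Flt1 thus passed the test in neither.

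Kdr, the main VEGF receptor, was at 0, 0 and 2 counts in Control and at 1, 4 and 4 in Glutamate. The other groups held 7, 4 and 0 counts in Memantine, 1, 4 and 2 in Glutamate_vesicles, 0, 10 and 0 in Glutamate_secret and 1, 5 and 3 in Glutamate_BPC. Glutamate, at 0.129 to 0.389 CPM, lay above Control at 0 to 0.108 CPM. The pooled ratio was 5.66 with an exact counting interval of 1.17 to 53.8, from 9 against 2 counts, and the floor of Control 1 again exceeds these levels. Without the filter, edgeR gave a log2 fold change of 2.29 (SE 1.49), an unadjusted p of 0.141 and an adjusted p of 0.952. Of the 36 pairs made by the 4 genes below the filter and the 9 comparisons, these cases of Flt1 and Kdr were the 4 without overlap. Among the tested genes, to which neither belongs, ranges without overlap were found for 12.2% in Glutamate against Control, 6.27% in Glutamate_vesicles against Glutamate, 19.5% in Glutamate_vesicles against Control and 24.9% in Glutamate_BPC against Control.

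Cdh5, the VE-cadherin gene, held 0, 1 and 3 counts in Control and 1, 5 and 5 in Glutamate. It held 0, 3 and 3 counts in Memantine, 0, 14 and 4 in Glutamate_vesicles, 1, 20 and 0 in Glutamate_secret and 0, 8 and 2 in Glutamate_BPC. In the 3 preparations the library with number 2 held 14 of 18, 20 of 21 and 8 of 10 counts. Tek, the Tie2 receptor gene, held 0, 7 and 5 counts in Control, 0, 3 and 1 in Glutamate and 0, 4 and 2 in Memantine. It held 0, 8 and 4 in Glutamate_vesicles, 0, 12 and 0 in Glutamate_secret and 0, 7 and 3 in Glutamate_BPC. For both genes the ranges of all groups overlapped in every comparison made.

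**Figure D4:**
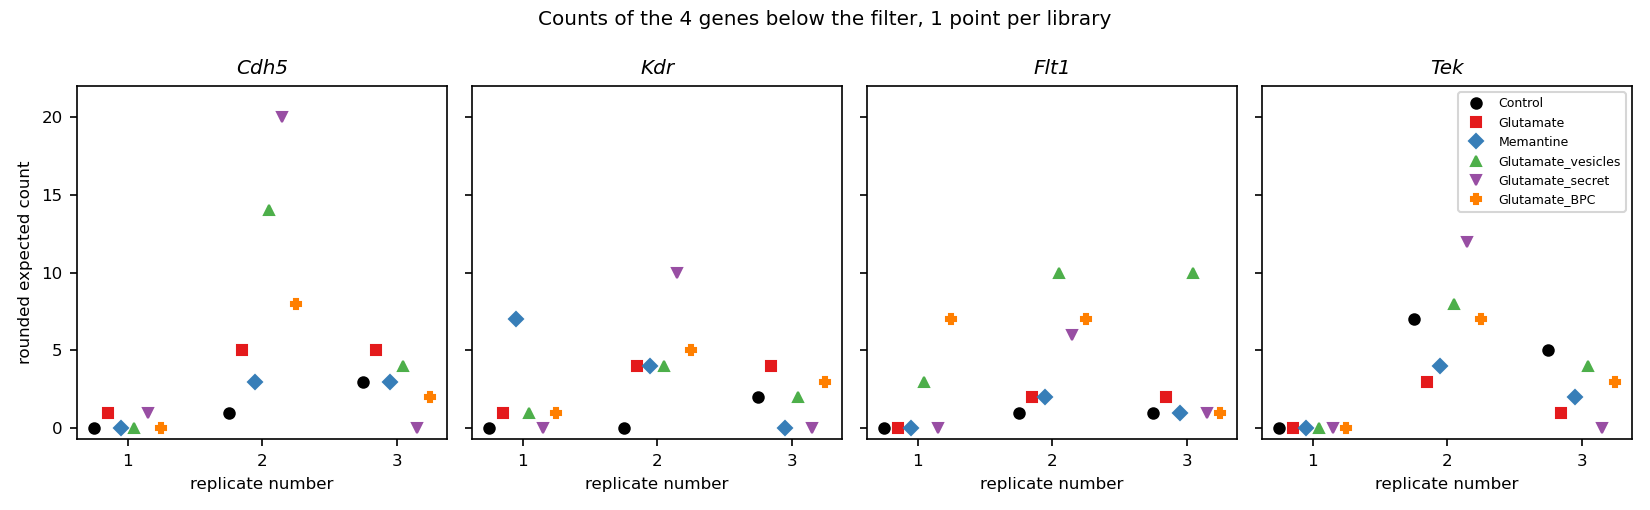
Rounded expected counts of Cdh5, Kdr, Flt1 and Tek (1 panel each) by the replicate number of the label, with 1 point per library and a symbol for each group. Tek is at 0 in 6 of 6 libraries with number 1 and at 3 to 12 counts in those with number 2, and Flt1 in Glutamate_vesicles lies at 3, 10 and 10 counts. Counts are not scaled to library size. The floors with number 1, 0.272 to 0.857 CPM, overlap with the 0.190 to 0.531 CPM of Tek with number 2.

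Counts of several endothelial genes went with the replicate number of the label. Tek was at 0 in 6 of 6 libraries with number 1, at 3 to 12 counts in the 6 with number 2 and at 0 to 5 in the 6 with number 3. Cdh5 was at 0 to 1, 1 to 20 and 0 to 5 counts in the same order. These counts are not scaled to library size. The floors of the libraries with number 1 were 0.272 to 0.857 CPM. With number 2, Tek lay at 0.190 to 0.531 CPM and Cdh5 at 0.0491 to 0.885 CPM. A count of 0 in a library with number 1 therefore need not mean a lower level of either gene. The levels of Eng were 0.107 to 0.996 CPM with number 1, 0.667 to 5.42 CPM with number 2 and 1.44 to 3.26 CPM with number 3. Numbers 1 and 3 thus did not overlap, but how many of all tested genes had such ranges apart was not counted. The median of Pecam1 was 0.935, 2.11 and 0.955 CPM, and that of Vwf 0.554, 0.759 and 0.750 CPM. In a fit of edgeR with group and number, chosen after the data were seen, the number gave an adjusted p of 0.00505 for Eng, 0.0708 for Pecam1 and 0.447 for Vwf. This is 1 of 3 called, where 60.4% of all tested genes were called. What the number stands for is not given in the labels. The study's supplement names a day covariate for its own clustering, and does not tie it to these numbers. The libraries with number 1 had shares of ribosomal RNA of 13.4% to 43.0%, against 3.04% to 8.15% with number 2 and 6.58% to 26.6% with number 3. The part of these differences in the result was not tested.

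The 3 tested genes were only weakly alike over the 18 libraries. Spearman's rho of log2 CPM was 0.40 between Eng and Vwf, 0.32 between Pecam1 and Eng and 0.28 between Pecam1 and Vwf. Among the 14397 genes compared with each, the other endothelial genes ranked between 1287 and 3990. Libraries share depth and composition across genes, and the values are descriptions. The genes most like Pecam1 were Hfm1 (rho 0.86) and Mycn (0.83). Those most like Eng were Rgs1 (0.94) and Ccl6 (0.93), and those most like Vwf were a transcript listed as ENSRNOT00000098347 (0.76) and Rnf170 (0.74). With log2 CPM centred within replicate numbers, an alternative added after the data were seen, Pecam1 and Hfm1 had a rho of 0.87, Pecam1 and Mycn 0.69, Eng and Rgs1 0.79 and Eng and Ccl6 0.57. On the same scale, Vwf had a rho of 0.58 with the transcript and 0.35 with Rnf170. Among the endothelial genes themselves it was -0.06 between Eng and Vwf, 0.21 between Pecam1 and Eng and 0.14 between Pecam1 and Vwf.

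Eng varied with the genes of microglia and macrophages from library to library. Its rho with the 9 genes of that list, which includes Cx3cr1, Csf1r and Aif1, was 0.51 to 0.82 with a median of 0.65. The median over all tested genes was 0.05, and the median for the list after centring within replicate numbers was 0.56. The summed level of the list was 42.5 to 126 CPM in Control, 114 to 371 in Glutamate and 31.8 to 447 in Memantine. It was 58.6 to 175 CPM in Glutamate_vesicles, 84.6 to 651 in Glutamate_secret and 120 to 479 in Glutamate_BPC. All 9 genes passed the filter and 0 were called over the 6 groups, with the smallest unadjusted p for Aif1 (0.0742) and C1qb (0.477). The part of these cells in the level of Eng was not tested. The median rho with the same list was 0.17 for Pecam1 and 0.40 for Vwf. Centred within replicate numbers, it was -0.12 for Vwf.

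**Figure D5:**
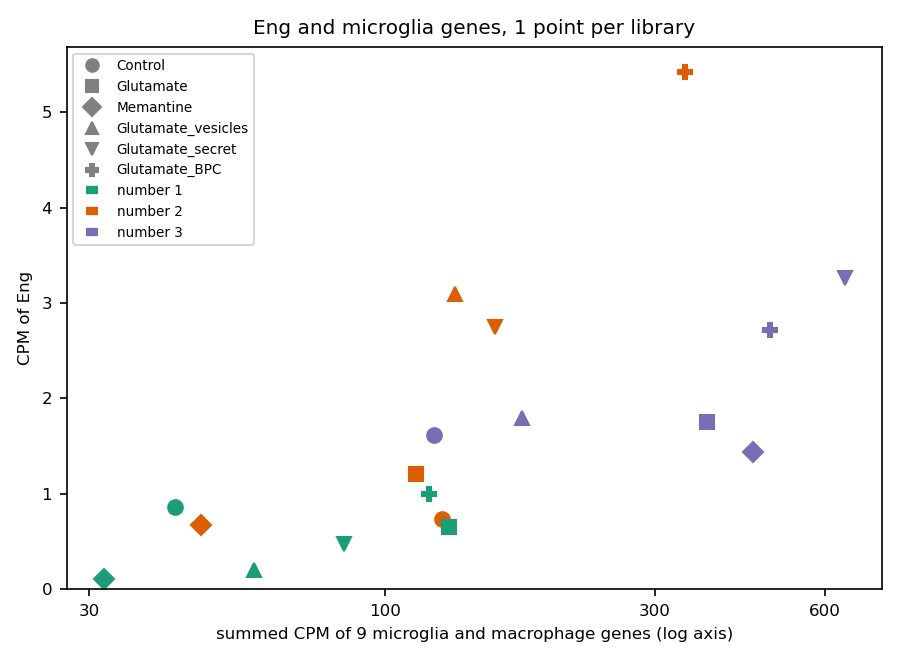
CPM of Eng (vertical axis, from 0) against the summed CPM of 9 microglia and macrophage genes (horizontal log axis) in the 18 libraries, with a symbol for each group and a colour for each replicate number. Libraries with number 1 lie at 0.107 to 0.996 CPM of Eng, and Glutamate_BPC 2 is the highest at 5.42 CPM.

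Most other genes of endothelium were sparse too. Of a list of 19, 18 were matched to a row, and 11 of them never exceeded 1 CPM in any library. The transcription factor Erg was at 0 in 11 libraries, the sialomucin Emcn in 10 and the transcription factor Sox18 in 13. Of the 18, 2 exceeded 1 CPM in every library, S1pr1 at 3.76 to 73.9 CPM and Rasip1 at 3.49 to 50.6 CPM. The summed list lay between 25.1 and 93.1 CPM. Without these 2 genes, which were set apart after their values were seen, the remaining 16 summed to 3.43 to 11.4 CPM. S1pr1, a receptor of sphingosine-1-phosphate, is also expressed by glial cells. Of the 5 genes that passed the filter, 0 were called over the 6 groups, the smallest unadjusted p being 0.0898 for Egfl7 and 0.0990 for Rasip1. The median log2 fold change of the 5 genes for Glutamate against Control was 0.53, beside 0.08 over all tested genes.

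Most ligands of the VEGF receptors passed the filter on low counts, unlike Kdr and Flt1. All 8 genes of the VEGF list were matched and 6 passed the filter, while Vegfd and the receptor gene Flt4 did not. Vegfa, the principal ligand of Kdr and Flt1, lay between 10.4 and 80.3 CPM over the 18 libraries, with an unadjusted p of 0.815 over the 6 groups in edgeR. Vegfb, a ligand of Flt1, lay between 17.5 and 48.9 CPM. Of the 6 genes 0 were called, and the smallest unadjusted p was 0.156 for the co-receptor Nrp1 and 0.304 for Nrp2. Their median log2 fold change was 0.24 for Glutamate against Control and 0.32 for Glutamate_vesicles against Control, beside 0.08 and 0.03 over all tested genes. In the angiopoietin list, 2 of 5 genes passed the filter and 0 were called, with unadjusted p of 0.778 for Angptl4 and 0.909 for Angpt1, the activating ligand of Tek. Of the 8 genes around endoglin in bone morphogenetic protein signalling, 5 passed and 0 were called. The target genes Id1 and Id3 had unadjusted p of 0.0775 and 0.494.

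Further lists of endothelial function were mostly without calls in the fit without a replicate block. Of 11 partners of Cdh5, Cldn5 and Pecam1 at junctions, 10 passed the filter and 0 were called, with Jup (plakoglobin, unadjusted p 0.0105) and F11r (0.290) first. Of 17 transcription factors, 8 passed and 0 were called, with Klf2 (0.0403) and Klf4 (0.0425) first. Of 12 transporters of the blood-brain barrier, 10 passed and 0 were called, with the glucose transporter gene Slc2a1 (0.138) and the lipid transporter gene Mfsd2a (0.169) first. Of 9 activation genes, 5 passed and 0 were called, with Ccl2 (0.000711, adjusted p 0.134) and Plvap (0.00628, adjusted p 0.244) first. Of 9 arterial genes, 6 passed and 1 was called, Gja5, which encodes the gap junction protein connexin 40. Its adjusted p over the 6 groups was 0.0236 in edgeR, and it rose in Glutamate_vesicles against Control by 5.45 on the log2 scale (SE 0.74, adjusted p 0.0215). Its libraries lay at 14.0 to 22.8 CPM in Glutamate_vesicles, 3.15 to 4.38 in Glutamate_secret and 3.15 to 10.0 in Glutamate_BPC. They lay at 0.381 to 2.20 CPM in Glutamate, 0.389 to 0.862 in Memantine and 0.196 to 0.700 in Control. For Glutamate_vesicles against Glutamate, edgeR without the block called 0 of all 14398 tested genes, and so not Gja5. Both calls held by DESeq2, by edgeR's likelihood-ratio test and in the other alternatives that kept all libraries. They were lost on leaving out some single libraries. For Glutamate_vesicles against Control, Gja5 lost the call without Control 1, 2 or 3, Glutamate_vesicles 1 or 3 or Glutamate_BPC 1, with adjusted p up to 0.348 in edgeR, while its log2 fold change stayed between 5.04 and 6.33. Over the 6 groups it lost the call on leaving out any of 9 of the 18 libraries, with adjusted p up to 0.164 in edgeR, namely Control 1 or 2, Glutamate 3, Glutamate_vesicles 1 or 3, Glutamate_secret 1 or 3 or Glutamate_BPC 1 or 2. Pecam1, Eng and Vwf had log2 fold changes of -1.46, 0.66 and -0.26 in the vesicle comparison, and none of these passed.

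In Glutamate_vesicles against Control the replicate numbers paired the libraries, and a block for the number changed the calls of the lists. With the block, 11 of the 97 tested genes of all lists were called in edgeR, where 538 of all 14398 tested genes (3.74%) were called, and 0 of Pecam1, Eng and Vwf. In the lists of endothelial function, Gja5 was higher by 5.39 on the log2 scale (adjusted p 0.00900 in edgeR with the block) and Ccl2, which encodes a chemokine that attracts monocytes, by 6.34 (0.0233). The transcription factor genes Klf4 and Elk3 were higher by 1.63 (0.0378) and 1.69 (0.0456). Rasip1, which encodes a regulator of vessel lumen formation, had a log2 fold change of -1.82 (0.0384). Among markers of other cells, Tagln and Cspg4 of the mural list, Col1a1 of the fibroblast list and Olig1 of the oligodendrocyte lineage were higher, with adjusted p of 0.0348, 0.0461, 0.0464 and 0.0414 in edgeR. The neuron genes Tubb3 and Stmn2 were lower by log2 fold changes of -1.97 and -1.88, with adjusted p of 0.0245 and 0.0287 in edgeR. Without the block Gja5 alone was called among them. With the block, 8 and 3 of the 97 list genes were called in Glutamate_secret and Glutamate_BPC against Control, beside 700 and 251 of all tested genes. The numbers did not pair the libraries in these comparisons. Gja5 was higher there by 3.12 (adjusted p 0.0208 in edgeR) and 4.09 (0.0329). Tagln was called higher and Tubb3 lower in both, and Ccl2 was called higher in Glutamate_secret. In Glutamate against Control, where the numbers did not pair the libraries either, the block gave 4 calls among the 97, beside 166 of all tested genes. Klf4 was called higher there by 1.99 (adjusted p 0.0398 in edgeR). Tubb3, Stmn2 and Snap25 had log2 fold changes of -2.01, -1.93 and -2.31 there (0.0398, 0.0401 and 0.0477).

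Marker genes of other cells were summed by list in each library. CPM are not divided by gene length, so the sums are given without ranking the lists. Summed over the list, astrocyte genes lay between 1826 and 11076 CPM, neuron genes between 460 and 3010 CPM and genes of the oligodendrocyte lineage between 315 and 1156 CPM. Mural genes, of the pericytes and smooth muscle cells that surround endothelium, summed to 99.7 to 837 CPM from 10 genes. Of these, Tagln alone lay between 38.4 and 808 CPM. Rgs5, Abcc9 and Acta2 held 3, 28 and 55 counts over all 18 libraries. Fibroblast genes summed to 21.1 to 330 CPM from 6 genes. Pdgfra alone lay between 21.1 and 320 CPM, and Dcn and Lum held 20 and 12 counts. Each of these sums thus rests largely on 1 gene and does not show how many such cells were present. Platelet genes summed to 0.508 to 18.2 CPM and erythroid genes to 0.323 to 9.61 CPM. In the F test of edgeR over the 6 groups none of these 7 lists had a called gene, and 3 of the 6 neuron genes, 1 of the 6 oligodendrocyte genes and 1 of the 3 tested platelet genes had an unadjusted p below 0.05. The smallest unadjusted p were 0.336 for Gfap and 0.523 for Aldh1l1 among astrocyte genes, 0.000152 for Tubb3 and 0.0188 for Rbfox3 among neuron genes and 0.0106 for Olig1 and 0.0653 for Olig2 in the oligodendrocyte lineage. They were 0.0799 for Tagln and 0.236 for Cspg4 among mural genes, 0.0928 for Col1a1 and 0.588 for Col1a2 among fibroblast genes, 0.0268 for Gp1bb and 0.809 for Pf4 among platelet genes and 0.432 for Hbb among erythroid genes. The part of mural, platelet or other cells in the levels of the endothelial genes was not tested.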

How the data were processed

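RNA of 18 libraries was measured by sequencing, 3 in each of 6 groups taken from the labels. The authors deposited expected counts per gene, which are estimated counts that need not be whole. Per the study's methods, reads were trimmed (Trimmomatic, Cutadapt) and assigned by Salmon to Ensembl transcripts of rn6 with the genome as decoy, and tximport combined transcripts into genes. Per the labels' processing notes the tools were STAR and Salmon and the build was rn6. For Salmon, the version was not given in the sources used here. Labels and methods name different library kits and platforms, and strand is not stated for the counting, so reads of overlapping genes may be shared. Counts were taken as deposited and rounded before the tests.

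Total counts ranged from 8409574 to 17206354. edgeR 4.0.16 in R 4.3.3 was used with filterByExpr (minimum count 10, minimum total count 15; 14398 genes kept), TMM scaling, 1 mean per group over all 18 libraries, the two-sided quasi-likelihood test and Benjamini-Hochberg adjustment over all tested genes, with calls at an adjusted p below 0.05. An F test covered the 6 groups, and 9 comparisons of 2 groups followed. CPM came from the TMM-scaled library size, and log2 CPM used a prior count of 2. Exact Poisson intervals at 95% were computed for counts and exact conditional binomial intervals for ratios of pooled counts. A floor of 3 counts was used for a count of 0. Alternatives were the likelihood-ratio test of edgeR, which the study used, DESeq2 1.42.0, DESeq2 size factors, no filter, ribosomal RNA rows left out (78 rows), a block for replicate number and each library left out in turn. Scripts were tested on simulated data. Upstream sequences came from RefSeq (GRCr8).

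The endothelial genes and the other gene lists were chosen with earlier results of these data known. Named genes follow a rule. For the endothelial genes, fold changes were given for Glutamate against Control, and elsewhere where the unadjusted p was below 0.05 or ranges did not overlap, and further ones only to show interval widths or beside Gja5. For each list, called genes were named, otherwise the 2 with the smallest p over the 6 groups, and for likeness the 2 genes with the highest Spearman's rho. Erg, Emcn, Sox18, S1pr1, Vegfa, Vegfb, Vegfd, Flt4, Map2, Stmn2, Rgs5, Abcc9, Acta2, Pdgfra, Dcn and Lum were chosen after their values were seen. So were the comparison given for Tubb3, the genes called with the replicate block and the p-values given with that block. Same-numbered libraries were taken as paired where the correlations of their deviations from the group means were all above 0.1. This held in 4 of 9 comparisons, with correlations from -0.45 to 0.89 over all 9.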

Additional observations from a re-analysis of the deposited data

How the results depend on the processing

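The count of endothelial genes called was 0 in the F test over the 6 groups and in each of the 9 comparisons, and it stayed 0 in all 240 combinations of these 10 results with 24 alternatives. In many of these combinations few or none of all tested genes were called, so a count of 0 says little there. Without Control 1, for example, 0 of 14677 tested genes were called over the 6 groups. With all libraries kept, DESeq2 called 717 of 14398 over the 6 groups. Some alternatives left out a library that was in neither of the groups compared. With a replicate block the count of endothelial genes called was 0 as well, also in the comparisons where the numbers paired the libraries. Under that block, Pecam1 for Glutamate against Control, where the numbers did not pair the libraries, had a log2 fold change of -2.03 and an adjusted p of 0.152 in edgeR, and the adjusted p over its other alternatives that kept all libraries reached 0.763. The block changed no call of Pecam1, Eng or Vwf, although over all tested genes it called 166 in that comparison, against 0 without it, and list genes gained calls under it. Leaving out each library in turn, the log2 fold change of Pecam1 there ranged from -2.55 to -1.74, with the largest unadjusted p, 0.0872, without Glutamate 3. It ranged from 0.82 without Memantine 2 to 1.89 for Memantine against Glutamate, from 0.99 without Glutamate_BPC 2 to 2.09 for Glutamate_BPC against Glutamate and from -2.30 without Glutamate_vesicles 2 to -1.16 for Glutamate_vesicles against Control. The directions of Eng and Vwf for Glutamate against Control depended on single libraries. Eng ranged from -0.21 without Glutamate 3 to 0.62 without Control 3, and Vwf from -0.15 without Glutamate 2 to 0.45 without Control 3. Of 144 single fold changes 138 kept their direction and side of the threshold and 6 reversed, all of them on leaving out a library. Of 84 group means in CPM, 83 moved by less than 1 SD, and Vwf in Glutamate_vesicles went from 0.651 to 0.757 CPM with the ribosomal RNA rows left out. Depth limits what can be said of Cdh5, Kdr, Flt1 and Tek, which held 48 to 70 counts each over all 18 libraries.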
